A study of Mus musculus with 18 samples.

Results

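The 40 genes described here encode the ligands, receptors, SMAD proteins, latent binding proteins, inhibitors and ID targets of TGF-beta and BMP signalling. They were chosen by gene symbol, from a named list set by role, out of 35976 symbols in each count table. Of the 40, 38 passed the filter on low counts and were tested among 15072 genes. Bmp2 and Bmp4, which encode bone morphogenetic proteins, did not pass it.

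Ligands of this family are secreted dimers that bring together a type II and a type I receptor kinase at the cell surface. The type I kinase then phosphorylates SMAD proteins, SMAD2 and SMAD3 for TGF-beta and activin and SMAD1, SMAD5 and SMAD9 for BMP, and these enter the nucleus with SMAD4 and act on target genes. TGF-beta ligands are stored in the matrix in a latent form, activin and BMP ligands are trapped by secreted antagonists, and in carcinoma cells TGF-beta is known for its part in the epithelial to mesenchymal transition.

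The RNA came from cultured 4T1 cells, a mammary carcinoma line of BALB/c mice used to model triple-negative breast tumours. All 6 groups received 2 µg/ml doxycycline for 6 days to induce a short hairpin. In the control groups, NSi, the hairpin is non-silencing, and in the shDap5 groups it targets Dap5. DAP5 is a translation initiation factor related to eIF4G and is encoded by Eif4g2. From each arm, polyadenylated RNA was sequenced from unfractionated lysate (input), from light polysomes, where mRNAs carry few ribosomes, and from heavy polysomes, where they carry many, with 3 libraries per arm and fraction and 18 in all. No uninduced cells are among these libraries, so a difference between the arms that was present before induction cannot be told apart from one that followed it. No label states that the 3 libraries of a group are separate cultures, so the p-values speak only to library-to-library spread, and that spread may be technical.

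Total counts per library were 30385863 to 71331978. Eif4g2, the target of the hairpin, stood at 799, 759 and 852 CPM (TMM-scaled counts per 1000000) in NSi inputs and at 592, 340 and 671 CPM in shDap5 inputs. It was not called in input (log2 change of shDap5 against NSi -0.59, SE 0.26, edgeR adjusted p = 0.202; with a replicate block within each fraction 0.00454), where the arms did not overlap, and fell on light polysomes (-1.60, SE 0.26, adjusted p = 0.00204) and heavy polysomes (-1.45, SE 0.26, adjusted p = 0.00349). The input library of shDap5 replicate 2 stood apart from the other shDap5 inputs: chi-square per degree of freedom over genes was 133 and 132 against replicates 1 and 3, and 11.9 between those. Of the cell type markers, the summed level of 8 epithelial genes was 2244 to 2556 CPM in NSi inputs and 3320 to 3864 CPM in shDap5 inputs, with Krt5 listed at 0, and 3 of the 7 tested rose in input. The 8 fibroblast genes summed to 31.2 to 40.8 and 23.6 to 30.9 CPM, mostly Pdgfra with Lum at 0, the 7 endothelial genes to 2.6 to 3.44 and 0.9 to 1.62 CPM with 2 of 5 tested lower, and the 7 macrophage genes to 44.2 to 49.7 and 21.2 to 61.3 CPM, mostly Cd68, with 1 of 4 tested higher and 1 lower. Their part in the results below was not tested. In RNA from whole cultures, fewer cells of a type and less RNA per cell cannot be told apart.

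Between the arms, 8 of the 38 tested genes passed an adjusted p of 0.05 in at least 1 fraction, against 8.77% of all tested genes. Inhbb, the activin beta B subunit, rose in all 3 fractions, and the coreceptor Tgfbr3 fell in all 3, against 1.95% of all genes called in every fraction. Another 3 genes were called in exactly 2 fractions (all genes 1.69%) and 3 in exactly 1 (all genes 5.13%). These 6, all lower in shDap5 where called, were the ligands Tgfb2 and Bmp7, the type I receptor Bmpr1b, the BMP-arm SMAD gene Smad9, the activin antagonist Fst and the target gene Id2. Of these, Bmpr1b passed the filter on low counts through NSi libraries alone, so it could be called lower but hardly higher. In input, 6 genes were called (1 rose and 5 fell) where 6.95% of all genes were called, 3.01% higher and 3.94% lower. On light polysomes 4 were called (1 rose, 3 fell; all genes 3.47%, with 1.83% higher and 1.64% lower), and on heavy polysomes 5 (1 rose, 4 fell; all genes 3.95%, with 2.03% higher and 1.92% lower). The median log2 change of the 38 genes was -0.02 in input, -0.03 on light and -0.01 on heavy polysomes, beside 0.05, -0.01 and 0.01 over all tested genes. The medians lay within 0.1 log2 units of each other in each fraction.

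No label says that libraries of equal replicate number belong together. Such libraries of the 2 arms deviated together within each fraction, so the numbers were taken to pair the arms there. A fit with the replicate number as a block within each fraction, which rests on that reading, called more of every kind of gene. With that block 17 members were called in input (6 rose, 11 fell) where 22.1% of all genes were, 14 on light polysomes (5 rose, 9 fell) where 16.1% were, and 10 on heavy polysomes (3 rose, 7 fell) where 18.3% were. Leaving out 1 library moved the counts as well. The counts over all genes moved too and are given in brackets, beside 1047, 523 and 595 genes with all libraries in input, light and heavy. In input 3 members were called without shDap5 replicate 1 (486 genes) or without replicate 3 (500) and 8 without replicate 2 (1712). On light polysomes 2 were called without NSi replicate 2 (218 genes) or shDap5 replicate 1 (393), and 1 without shDap5 replicate 2 (253) or 3 (235). On heavy polysomes 3 were called without NSi replicate 2 (252 genes) or shDap5 replicate 1 (400). When the 6 heavy libraries were fitted alone with edgeR, 0 were called (56 genes of 13248 tested), and 5 had an unadjusted p under 0.05. DESeq2 on all libraries called 6 (1050 genes). Counting only whether the 3 libraries of each arm overlapped, 7 members were higher and 13 lower without overlap in input (all genes 20.2% and 16.9%), 4 and 8 on light polysomes (10.2% and 9.64%), and 3 and 6 on heavy polysomes (7.6% and 8.11%). In all 3 fractions at once, 1 was higher (Inhbb; all genes 3.37%) and 5 were lower (Bmp7, Bmpr1b, Fst, Tgfb2 and Tgfbr3; all genes 3.17%). Bmpr1b is among the 5 only because its NSi libraries took it past the filter on low counts.

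**Figure D1:**
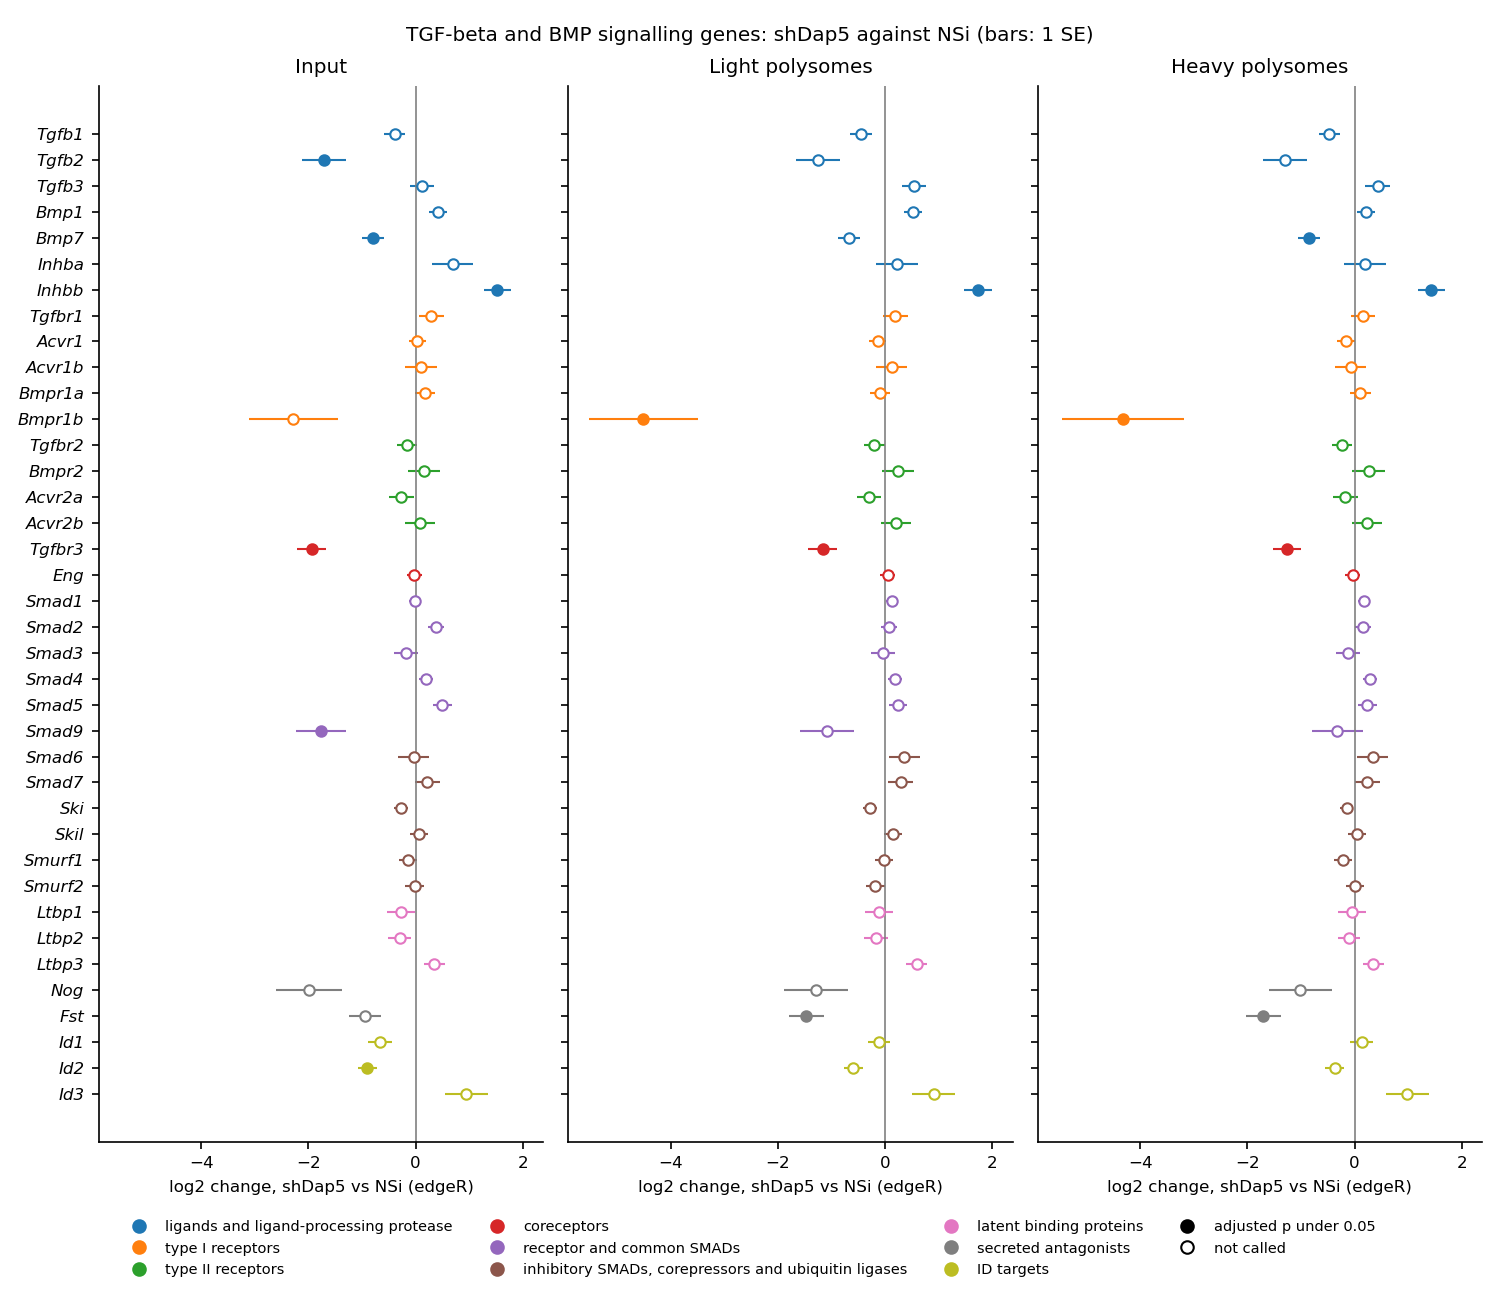
Log2 change of shDap5 against NSi (horizontal axis, with 1 SE) for the 38 tested genes, ordered and coloured by role, in input, light and heavy polysomes. Filled points passed an adjusted p of 0.05: Inhbb lies to the right in all 3 panels, Tgfbr3 to the left in all 3, and most other genes lie within 0.5 of 0.

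Among the ligands and the protease that processes them, 3 of the 7 tested genes were called in input, 1 on light and 2 on heavy polysomes, and they did not share a direction. Inhbb encodes the beta B subunit of activins and of inhibin B. It stood at 2.29, 2.14 and 1.92 CPM in NSi inputs and 6.1, 5.99 and 6.13 CPM in shDap5 inputs. On light polysomes it stood at 1.52, 1.23 and 0.751 CPM in NSi and 4.86, 3.95 and 2.94 CPM in shDap5, and on heavy polysomes at 3.22, 2.67 and 3.03 against 9.75, 7.17 and 7.21 CPM. Every shDap5 library lay above every NSi library of its fraction, and the shDap5 inputs lay within a range narrower than that of the NSi inputs. The log2 rise was 1.52 in input (SE 0.25, edgeR adjusted p = 0.000897), 1.74 on light (SE 0.26, adjusted p = 0.00111) and 1.43 on heavy polysomes (SE 0.25, adjusted p = 0.00281). The call on heavy polysomes was lost when only the 6 heavy libraries were fitted (adjusted p = 0.0569).

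Tgfb2, the second of the 3 TGF-beta ligand genes, stood at 10.6, 15.8 and 12.3 CPM in NSi inputs and at 2.25, 7.33 and 2.21 CPM in shDap5 inputs. The highest of the shDap5 values belonged to replicate 2, the library that stood apart. Tgfb2 fell in input to 30.5% of the NSi mean (log2 -1.71, SE 0.41, edgeR adjusted p = 0.0153). The log2 change was -2.53 without shDap5 input replicate 2. The call was lost without NSi input replicate 2 (adjusted p = 0.0708), shDap5 input replicate 1 (0.0985) or shDap5 input replicate 3 (0.0932), or with the 6 input libraries alone (0.0581). On light polysomes NSi libraries held 8.45, 10.7 and 7.65 CPM and shDap5 libraries 3.28, 4.95 and 3.04 CPM, and on heavy polysomes 12, 16.8 and 9.48 against 4.88, 7.64 and 3.15 CPM. The arms did not overlap in either polysome fraction, but neither difference was called (log2 -1.25, adjusted p = 0.114, and -1.29, adjusted p = 0.0928, both SE 0.41). With the replicate block within each fraction both were (adjusted p = 0.00154 and 0.000659). An antisense gene, Gm29491, shares 124 exon bases with Tgfb2, and since the use of strand in counting is not known its reads cannot be told apart from those of Tgfb2 there.

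The 250 bases before the annotated starts of Tgfb2 and Inhbb, the ligand genes with the largest fall and rise in input, and of Smad9, the SMAD gene that was called, are given below from RefSeq (GRCm38.p6). Capitals mark matches to CAGAC, which reads GTCTG on the other strand, a short sequence that SMAD proteins are known to bind, or to GGCGCC, a GC-rich core known from BMP-responsive elements.
Tgfb2: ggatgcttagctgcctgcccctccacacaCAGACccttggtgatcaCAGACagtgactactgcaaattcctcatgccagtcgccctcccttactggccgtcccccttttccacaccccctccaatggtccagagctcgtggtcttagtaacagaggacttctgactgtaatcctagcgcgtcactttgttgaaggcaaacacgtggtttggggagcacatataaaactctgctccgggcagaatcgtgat
Inhbb: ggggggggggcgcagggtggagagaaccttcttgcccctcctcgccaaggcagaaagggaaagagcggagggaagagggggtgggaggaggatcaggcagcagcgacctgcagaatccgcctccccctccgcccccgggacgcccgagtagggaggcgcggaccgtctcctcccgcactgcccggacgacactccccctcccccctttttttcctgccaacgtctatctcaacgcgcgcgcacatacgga
Smad9: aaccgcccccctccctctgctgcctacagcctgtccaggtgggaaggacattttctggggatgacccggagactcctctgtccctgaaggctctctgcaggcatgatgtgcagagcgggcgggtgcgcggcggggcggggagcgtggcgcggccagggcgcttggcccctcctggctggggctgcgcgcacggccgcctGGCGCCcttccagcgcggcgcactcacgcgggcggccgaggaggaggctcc
The Tgfb2 window (chr1:186705990-186706239, minus strand) held CAGAC at -221 and -204, counted back from the start. The Inhbb window (chr1:119422249-119422498, minus strand) held none of the motifs, and the Smad9 window (chr3:54755332-54755581, plus strand) held GGCGCC at -51. Promoter sequences were found for 28 of the 40 genes. Some of these genes have more than 1 annotated start, which gave 34 windows. Searched on both strands, CAGAC occurred in 16 of the 34 windows (47.1%), from 14 of the 28 genes, and in 42.2% of 32851 RefSeq promoters of the same length. GGCGCC occurred in 8 windows (23.5%), from 8 genes, and in 9.59% of promoters, and the palindrome GTCTAGAC in 0 windows and 0.167%. Single matches of such short motifs are a description of these letters only.

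Bmp7 encodes a BMP ligand. It stood at 102, 77.8 and 100 CPM in NSi inputs and 58, 46.3 and 56.8 CPM in shDap5 inputs, and on heavy polysomes at 141, 147 and 213 against 76.7, 90.3 and 111 CPM. The arms did not overlap, and Bmp7 fell in input (log2 -0.80, SE 0.21, edgeR adjusted p = 0.024) and on heavy polysomes (-0.85, SE 0.21, adjusted p = 0.0271). On light polysomes NSi libraries held 112, 108 and 149 CPM and shDap5 libraries 60.9, 77.2 and 94.2 CPM, again without overlap, a difference that was not called (-0.67, SE 0.21, adjusted p = 0.0908) but was with DESeq2 (0.0406), with a replicate block shared by all fractions (0.012) and with the block within fractions (0.00045). The calls were close to the threshold: in input the call was lost without NSi replicate 1 (adjusted p = 0.106) or 3 (0.101) or without shDap5 replicate 1 (0.0684), 2 (0.0635) or 3 (0.073). On heavy polysomes it was lost without NSi replicate 3 (0.0845) or shDap5 replicate 1 (0.106) or 2 (0.063), and with the heavy libraries alone (0.177).

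The remaining ligand genes were not called. Tgfb1 stood at 43.9 ± 1.21 CPM in NSi inputs (SD, n = 3) and 33.5 ± 2.87 in shDap5 inputs, without overlap, and its log2 change was -0.39, -0.45 and -0.47 in input, light and heavy (edgeR adjusted p = 0.296, 0.268 and 0.22). With the replicate block within fractions it was called lower in all 3 (adjusted p = 0.01, 0.00784 and 0.00509). Tgfb3 changed by 0.12, 0.54 and 0.43 (adjusted p = 0.844, 0.245 and 0.367; on light 0.0303 with the block), which puts its estimates on the other side of 0 from those of Tgfb1 and Tgfb2. Bmp1, which encodes a metalloprotease that cuts procollagens and latent TGF-beta complexes and is no BMP ligand, stood at 319 ± 9.47 CPM in NSi and 425 ± 28.4 CPM in shDap5 inputs (0.41, SE 0.17, adjusted p = 0.176; with the block 0.0437). On light polysomes Bmp1 changed by 0.52, without overlap (SE 0.17, edgeR adjusted p = 0.107). On heavy polysomes it changed by 0.22, with overlap (SE 0.17, adjusted p = 0.552). Inhba, the activin beta A subunit, stood at 45, 48.4 and 50 CPM in NSi inputs and 87.7, 64 and 80.1 CPM in shDap5 inputs, without overlap (0.69, SE 0.38, adjusted p = 0.352; with the block 0.00345). On polysomes the arms overlapped for Inhba, at 0.22 and 0.20. Bmp2 had 1, 4 and 0 counts in all over the 3 NSi libraries of input, light and heavy and none in shDap5, and Bmp4 had 1, 16 and 2 against 1, 0 and 1, too few for a comparison.

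**Figure D2:**
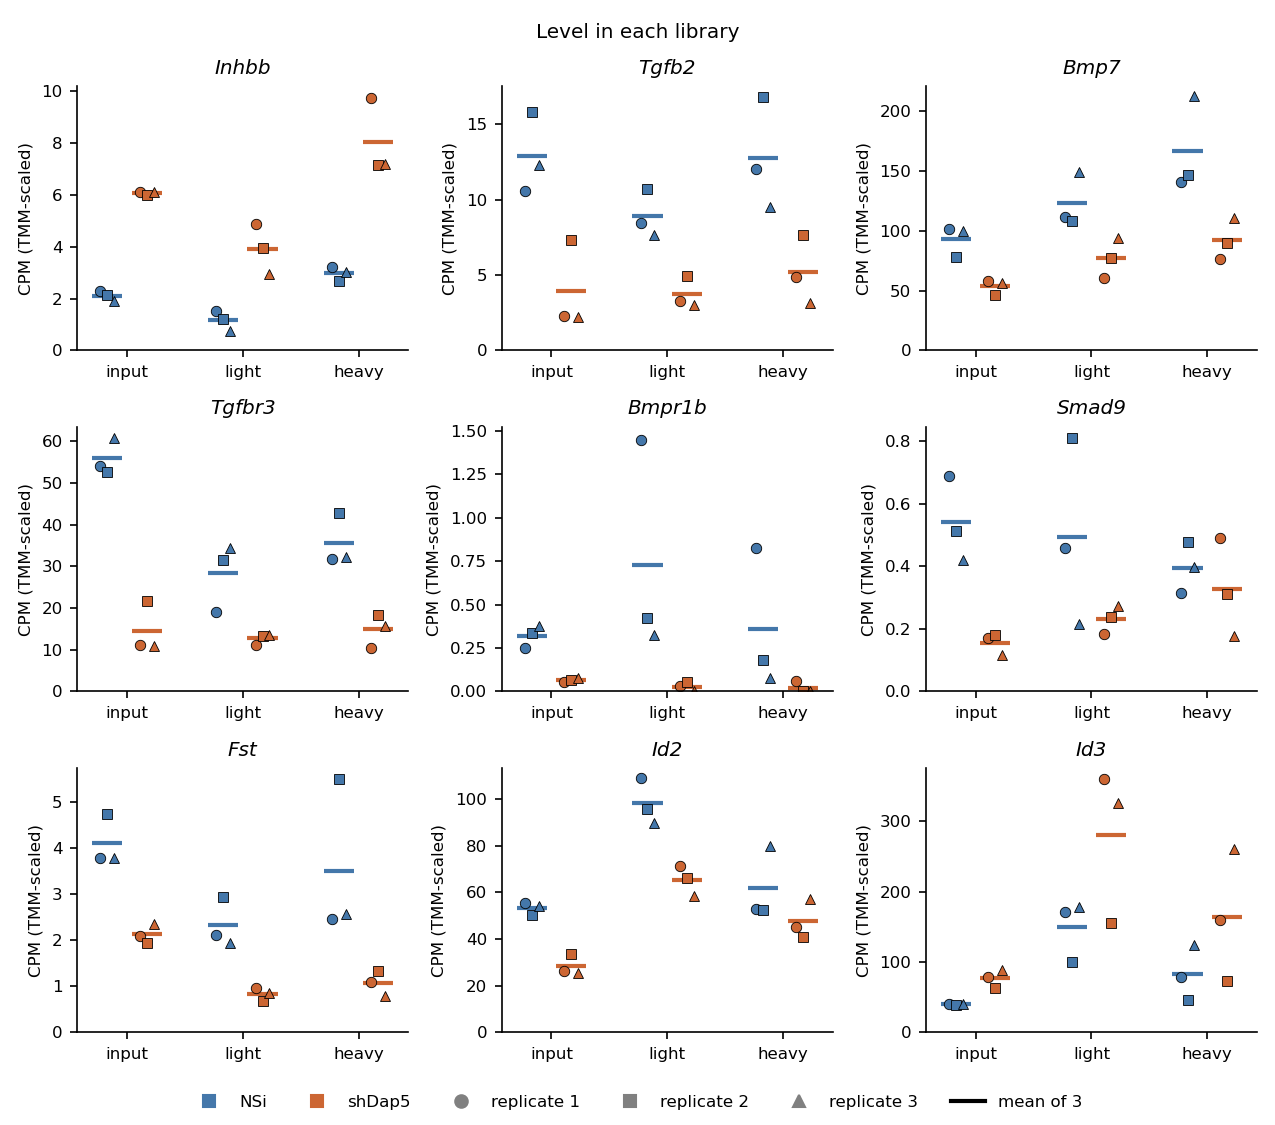
Level of 9 genes in each of the 18 libraries, in CPM on a linear axis from 0, by fraction, with NSi in blue and shDap5 in orange; marker shapes give the replicate number and bars the mean of 3. The arms are apart in every fraction for Inhbb, Tgfb2, Bmp7, Tgfbr3, Bmpr1b and Fst, and overlap on polysomes for Smad9 and Id3.

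Of the type I receptors, which carry the kinase that phosphorylates SMADs, only Bmpr1b was called, and it was scarce. Its NSi libraries held 0.25, 0.338 and 0.374 CPM in input, 1.45, 0.42 and 0.322 on light and 0.827, 0.183 and 0.0744 on heavy polysomes, and the highest shDap5 library held 0.0769, 0.0526 and 0.0613 CPM. Replicate 1 was the highest NSi library on both kinds of polysomes and the lowest in input. Over 3 libraries these were 61, 83 and 37 counts in NSi and 12, 3 and 2 in shDap5, so that shDap5 held 19.8% of the NSi level in input (95% exact counting interval 9.7 to 37.1), 3.97% on light (0.802 to 12) and 4.15% on heavy polysomes (0.485 to 16.1). These intervals cover counting error only. Bmpr1b passed the filter on low counts through its NSi libraries alone, as no shDap5 library held more than 4 counts. It could therefore be called lower but hardly higher. It fell on light polysomes (log2 -4.51, SE 1.02, edgeR adjusted p = 0.0194) and heavy polysomes (-4.32, SE 1.13, adjusted p = 0.0393), and was not called in input (-2.28, SE 0.83, adjusted p = 0.115; with the block 0.00595). The light call was lost without NSi replicate 1 (0.0928) or shDap5 replicate 1 (0.0615), 2 (0.0614) or 3 (0.0869), and the heavy call without NSi replicate 1 (0.277) or 2 (0.0547) or shDap5 replicate 2 (0.0956) or 3 (0.166). The size of the fall also rested on single libraries: on light polysomes it was -3.53 without NSi replicate 1 and -5.30 without shDap5 replicate 2, and on heavy polysomes -2.77 without NSi replicate 1, -7.09 without shDap5 replicate 1 and -3.54 without shDap5 replicate 3. The other type I receptor genes were well expressed and not called. Tgfbr1, the TGF-beta receptor kinase, changed by 0.29, 0.19 and 0.16, Acvr1 by 0.03, -0.14 and -0.16, Acvr1b, an activin receptor, by 0.10, 0.12 and -0.07, and Bmpr1a by 0.17, -0.09 and 0.11 (lowest adjusted p 0.543).

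The type II receptors bind ligand and activate the type I kinase, and none of the 4 genes was called by edgeR, nor had any an unadjusted p under 0.05 (lowest 0.211). Tgfbr2, with the smallest p-value of the 4 over the arm comparisons, stood at 248, 216 and 243 CPM in NSi inputs and 214, 179 and 238 CPM in shDap5 inputs. On light polysomes it stood at 147, 191 and 180 against 129, 187 and 133 CPM, and on heavy polysomes at 188, 254 and 242 against 174, 237 and 167 CPM. The arms overlapped in each fraction. Its log2 change was -0.16 in input (95% interval -0.57 to 0.24), -0.20 on light (-0.61 to 0.20) and -0.24 on heavy polysomes (-0.65 to 0.16), with edgeR adjusted p = 0.712, 0.67 and 0.56. Bmpr2 changed by 0.15, 0.24 and 0.26, Acvr2a by -0.27, -0.30 and -0.17, and Acvr2b by 0.08, 0.21 and 0.24.

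The coreceptors differed from each other. Tgfbr3 encodes betaglycan, which presents TGF-beta2 in particular to the signalling receptors and also binds inhibin. It stood at 54, 52.7 and 60.9 CPM in NSi inputs and 11.1, 21.8 and 10.9 CPM in shDap5 inputs, with replicate 2 again the highest. On light polysomes it stood at 19.1, 31.6 and 34.3 against 11.1, 13.4 and 13.6 CPM, and on heavy polysomes at 31.7, 42.7 and 32.3 against 10.5, 18.4 and 15.7 CPM. No shDap5 library reached an NSi library of its fraction, and the shDap5 means were 26.1%, 44.7% and 41.8% of the NSi means. The log2 fall was -1.94 in input (SE 0.27, edgeR adjusted p = 0.000322), -1.16 on light (SE 0.27, adjusted p = 0.0242) and -1.26 on heavy polysomes (SE 0.27, adjusted p = 0.0135). The input call held under each of 15 alternatives. The light call was lost without NSi replicate 2 (0.1) or 3 (0.0951) or shDap5 replicate 1 (0.0811), 2 (0.0712) or 3 (0.0732), and the heavy call without NSi replicate 2 (0.0718) or shDap5 replicate 1 (0.0625) and with the heavy libraries alone (0.103). Eng, endoglin, the other coreceptor and best known from endothelial cells, was not called: it stood at 75.4 ± 2.9 CPM in NSi and 73.8 ± 4.91 CPM in shDap5 inputs (SD, n = 3), with log2 changes of -0.03, 0.05 and -0.03 and 95% intervals from -0.34 to 0.28, -0.26 to 0.36 and -0.34 to 0.28.

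Of the 6 receptor-regulated and common SMAD genes, only Smad9, encoding SMAD8/9 of the BMP arm, was called, at a level per length far below the others. It stood at 0.687, 0.514 and 0.421 CPM in NSi inputs and 0.171, 0.18 and 0.115 CPM in shDap5 inputs, or 103 counts in all against 30. On light polysomes it stood at 0.457, 0.81 and 0.215 against 0.182, 0.237 and 0.273 CPM, and on heavy polysomes at 0.314, 0.476 and 0.397 against 0.491, 0.312 and 0.176 CPM. The arms were apart in input and overlapped in both polysome fractions. Smad9 fell in input (log2 -1.77, SE 0.47, edgeR adjusted p = 0.0263) and was not called on light (-1.08, SE 0.50, adjusted p = 0.286) or heavy polysomes (-0.32, SE 0.48, adjusted p = 0.798). The input call was lost without NSi replicate 1 (0.128), 2 (0.0731) or 3 (0.0505) or shDap5 replicate 1 (0.0997) or 3 (0.133). The other receptor-regulated and common SMAD genes were not called in any fraction. In input Smad1 changed by -0.01, Smad2 by 0.38, Smad3 by -0.18, Smad4 by 0.19 and Smad5 by 0.50 (lowest adjusted p 0.0924, for Smad5), and on polysomes their changes lay between -0.12 and 0.28. With the block within fractions Smad2 (0.36, adjusted p = 0.0186) and Smad5 (0.49, adjusted p = 0.00185) were called higher in input, and Smad4 on heavy polysomes (0.28, adjusted p = 0.0349).

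None of the 6 intracellular inhibitors was called by edgeR, and 1 had an unadjusted p under 0.05 in an arm comparison. This was Ski (lowest 0.0473). Ski encodes a corepressor that binds SMAD complexes. It stood at 114, 106 and 116 CPM in NSi inputs and 94.8, 84.8 and 98.2 CPM in shDap5 inputs, at 86.1, 107 and 92.1 against 71.2, 89.6 and 74.3 CPM on light, and at 137, 134 and 137 against 121, 129 and 116 CPM on heavy polysomes. The arms did not overlap in input and on heavy polysomes, and the log2 changes were -0.27, -0.28 and -0.15 (SE 0.13 each, edgeR adjusted p = 0.253, 0.302 and 0.602; with the block 0.0332 in input and 0.0413 on light). Smad6 and Smad7, the inhibitory SMAD genes that BMP and TGF-beta signals are known to induce, changed by -0.04, 0.36 and 0.34 and by 0.22, 0.29 and 0.24. The related corepressor gene Skil changed by 0.06, 0.14 and 0.05, and the ubiquitin ligase genes Smurf1 and Smurf2, whose products mark SMADs and receptors for breakdown, by -0.14, -0.02 and -0.22 and by -0.02, -0.18 and 0.01.

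The latent TGF-beta binding proteins tether latent ligand to the matrix, and none of their 3 genes was called by edgeR, with 1 unadjusted p under 0.05, for Ltbp3 on light polysomes (0.00841). Ltbp3 stood at 865, 804 and 763 CPM in NSi inputs and 936, 1226 and 948 CPM in shDap5 inputs, at 384, 384 and 501 against 507, 752 and 646 CPM on light, and at 1574, 1183 and 1519 against 1417, 2098 and 1938 CPM on heavy polysomes. Replicate 2 was the highest shDap5 library in each fraction, and the arms overlapped on heavy polysomes only. The log2 change was 0.35, 0.59 and 0.35 (SE 0.20 each, edgeR adjusted p = 0.355, 0.121 and 0.392; on light 0.0307 with the block). Ltbp1 and Ltbp2 changed by -0.28, -0.11 and -0.04 and by -0.30, -0.17 and -0.10. Exons of an antisense transcript, D030025P21Rik, cover 9.34% of the Ltbp2 exon bases.

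Both secreted antagonists had lower estimates in shDap5 in every fraction. Fst encodes follistatin, which binds activins, the dimers that the products of Inhba and Inhbb form. It stood at 3.79, 4.73 and 3.77 CPM in NSi inputs and 2.08, 1.93 and 2.36 CPM in shDap5 inputs, at 2.11, 2.94 and 1.93 against 0.972, 0.684 and 0.853 CPM on light, and at 2.45, 5.49 and 2.56 against 1.1, 1.33 and 0.8 CPM on heavy polysomes. The arms did not overlap in any fraction, and NSi replicate 2 was the highest library in each. Fst fell on light (log2 -1.47, SE 0.33, edgeR adjusted p = 0.0183) and heavy polysomes (-1.70, SE 0.32, adjusted p = 0.0054) and was not called in input (-0.95, SE 0.30, adjusted p = 0.0689; with the block 0.00838). The light call was lost without NSi replicate 2 (0.101) or shDap5 replicate 2 (0.0909) or 3 (0.0667) and with the light libraries alone (0.0624), and the heavy call with the heavy libraries alone (0.159). Nog, noggin, which traps BMPs, was not called, with 139, 129 and 109 counts in the NSi libraries of input, light and heavy and 34, 50 and 64 in shDap5. Its log2 changes were -1.99, -1.29 and -1.01 (SE 0.62, 0.60 and 0.59, adjusted p = 0.0637, 0.297 and 0.415), and with the block it was called lower in input (0.00378) and on light polysomes (0.0343).

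The 3 ID genes, classical targets of BMP signalling whose products block basic helix-loop-helix factors, did not go the same way. Id2 stood at 55.3, 50.3 and 54.3 CPM in NSi inputs and 26.4, 33.6 and 25.4 CPM in shDap5 inputs, and fell there to 53.4% of the NSi mean (log2 -0.90, SE 0.18, edgeR adjusted p = 0.00456), a call that held under each of 15 alternatives. On light polysomes it stood at 109, 95.5 and 89.5 against 71.3, 66.1 and 58.3 CPM, without overlap (-0.59, SE 0.18, adjusted p = 0.0867; with the block 0.00232), and on heavy polysomes at 52.7, 52.2 and 80 against 45, 40.7 and 57.2 CPM, with overlap (-0.37, SE 0.18, adjusted p = 0.302; with the block 0.0334). Id3 was chosen here after its values were seen. It stood at 40.1, 39 and 41 CPM in NSi inputs and 78.7, 62.8 and 88.9 CPM in shDap5 inputs, at 171, 100 and 178 against 360, 156 and 326 CPM on light, and at 79.1, 45.8 and 125 against 160, 72.8 and 261 CPM on heavy polysomes. Within each replicate number the shDap5 library was the higher, and replicate 2 was low in both arms. The log2 change of 0.94, 0.91 and 0.98 (SE 0.40 each) was not called without the block (edgeR adjusted p = 0.191, 0.262 and 0.206) and was with it (0.93, 0.86 and 0.92, adjusted p = 6.68e-05, 0.00023 and 0.000131). Id1 changed by -0.67 in input (adjusted p = 0.0735; with the block 0.00213), -0.11 on light and 0.13 on heavy polysomes.

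Of the 30 members called in no arm comparison, 25 lay within 0.5 log2 units of 0 in input, 25 on light and 28 on heavy polysomes, with a median SE of 0.21. The farthest from 0 were Nog and Id3. A missing call does not show that the arms were alike.

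Whether the difference between the arms on polysomes went beyond that in input was tested directly as a relative comparison. No member and none of the 15072 genes passed an adjusted p of 0.05 when heavy or light polysomes were set against input, or heavy against light (edgeR, and 0 genes with DESeq2 too). At an unadjusted p under 0.05 edgeR without a block listed 295, 320 and 181 genes (1.96%, 2.12% and 1.2%) and DESeq2 360, 400 and 223. With the replicate block within each fraction edgeR listed 1571, 1622 and 863 genes, among them 4, 5 and 0 members. That fit too called 0 genes at an adjusted p of 0.05. Of the members, 2 were among the edgeR lists without a block, both for heavy relative to input: Id1 (log2 0.80, SE 0.31, edgeR unadjusted p = 0.0175) and Smad9 (1.45, SE 0.67, unadjusted p = 0.0436). Tgfbr3, with the larger fall in input, differed by 0.77 on light relative to input (SE 0.38, unadjusted p = 0.056). Calls made in one fraction and not in another, such as those of Fst on polysomes and Id2 in input, are therefore not shown to differ between fractions.

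Divided by exon length, the input levels of the tested members ran from Bmpr1b to Ltbp3. The highest in NSi inputs was Ltbp3 at 89.4 ± 5.66 CPM per kilobase of exons (SD, n = 3), followed by Bmp1 at 36 ± 1.08, Ltbp1 at 30.4 ± 2.65, Ltbp2 at 30.3 ± 1.45, Smurf1 at 29.8 ± 1.61 and Smad3 at 29.4 ± 4.18, whose ranges from Ltbp1 on overlapped. Of the TGF-beta ligands Tgfb3 led at 14.5 ± 0.568, then Tgfb1 at 8.71 ± 0.24 and Tgfb2 at 2.23 ± 0.458. The receptor Tgfbr2 stood at 28.8 ± 2.1 and its partner Tgfbr1 at 14.6 ± 1.4, while the BMP receptor genes Bmpr1a and Bmpr2 stood at 14.6 ± 1.64 and 3.89 ± 0.779. At the low end were Fst at 0.893 ± 0.12, Inhbb at 0.497 ± 0.0437, Nog at 0.431 ± 0.105, Smad9 at 0.101 ± 0.0251 and Bmpr1b at 0.0538 ± 0.0107. Of the 8 called genes, 5 stood at ranks 32 to 38. In shDap5 inputs Id3 moved from rank 11 to 3 of 40, Inhba from 26 to 19, Bmp7 from 10 to 18, Id2 from 12 to 21 and Tgfbr3 from 25 to 31. Lengths are those of merged GENCODE M21 exons (GRCm38), which may differ from the gene models used for counting.

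**Figure D3:**
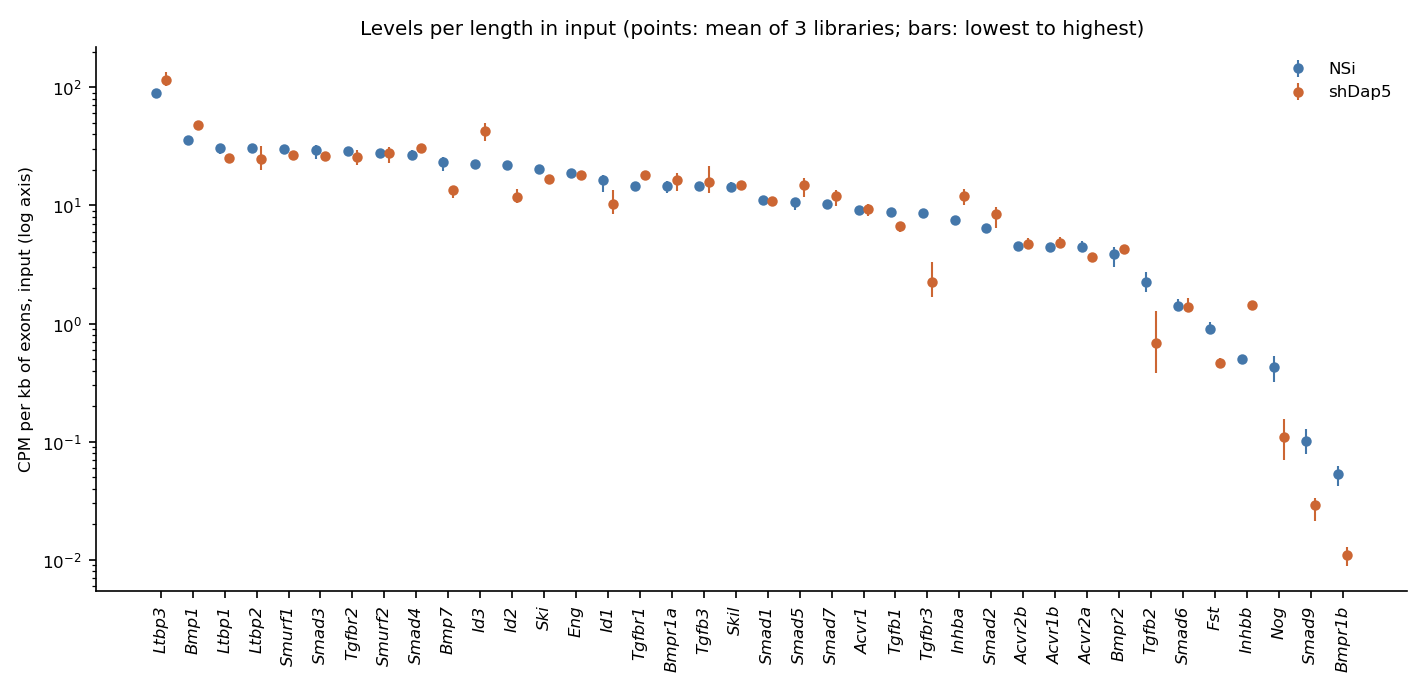
Input level of the 38 tested genes in CPM per kilobase of exons (log axis), ordered by the NSi mean; points are means of 3 libraries and bars run from the lowest to the highest library. Ltbp3 is the highest in both arms, and the arms stand apart most visibly for Tgfbr3, Tgfb2, Inhbb, Nog, Smad9 and Bmpr1b at the low end and for Id3 and Id2 in the middle.

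The control arm alone gives the place of each mRNA on the gradient without the hairpin against Dap5. These comparisons share the NSi libraries, and levels are relative to the other mRNAs of the same fraction. Between heavy and light polysomes 14 members were called, 11 higher on heavy and 3 lower, where 52.6% of all genes were called (27% higher, 25.6% lower); at an unadjusted p under 0.05 they were 18 members and 59% of all genes. Ltbp3 (log2 1.75, SE 0.20, edgeR adjusted p = 2.75e-06), Bmp1 (1.56, SE 0.17, adjusted p = 1.93e-06), Ltbp2 (1.30), Smurf1 (0.98) and Eng (0.83) were the members with the smallest p-values among those higher on heavy polysomes. Id1 (-1.12, SE 0.22, adjusted p = 0.000382), Id2 (-0.67) and Bmpr1a (-0.68) were lower there. Smurf2 (-0.40, adjusted p = 0.0582) and Id3 (-0.85, adjusted p = 0.0819) come next and were not called. Same-numbered NSi light and heavy libraries deviated together. With a replicate block shared by all fractions both genes were called (edgeR adjusted p = 0.0455 and 0.00369), as they were with DESeq2 (0.0245 and 0.0472). That block also ties NSi inputs to polysomes of the same number, which did not deviate together (correlations -0.32 to 0.1).

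Against input, 16 members were called on heavy polysomes (10 higher, 6 lower; all genes 46.6%, with 26.4% higher and 20.2% lower) and 21 on light polysomes (5 higher, 16 lower; all genes 51.4%, with 26.7% higher and 24.7% lower). Tgfb1 was higher on both, by 1.58 on heavy (SE 0.20, edgeR adjusted p = 7.47e-06) and 1.39 on light (SE 0.20, adjusted p = 3.25e-05). The members named here are those with the 5 smallest p-values in each direction, and other called members had larger changes than some of them. On heavy polysomes Eng (1.16), Bmp7 (0.84), Ltbp3 (0.81) and Id1 (0.75) were higher too. Skil (-1.07), Acvr2a (-0.98), Bmpr1a (-0.76), Tgfbr1 (-0.76) and Smad1 (-0.40) were lower there. On light polysomes Id3 (1.90), Id1 (1.87), Smad6 (1.02) and Id2 (0.88) were higher, and Ltbp1 (-1.83), Ltbp2 (-1.47), Acvr2a (-1.16), Bmp1 (-1.13) and Skil (-0.88) were lower. The call of Id1 on heavy polysomes was lost without NSi input replicate 1 (adjusted p = 0.0539) and with upper-quartile scaling (0.0749), that of Smad6 without NSi light replicate 3 (0.0551), and that of Smad1 without the low-count filter (0.0657). The split between higher and lower depends on the scaling. With upper-quartile in place of TMM scaling the median of all genes moved from -0.03 to -0.27 for heavy against light and from 0.03 to -0.20 for heavy against input. The share of called genes that were higher then went from 51.3% to 36.8% and from 56.6% to 40%, and the members split into 9 higher and 7 lower and into 4 higher and 10 lower.

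The members differed in coding length as well as in their place on the gradient. The 3 latent binding protein genes have coding sequences of 5139 (Ltbp1), 5427 (Ltbp2) and 3759 (Ltbp3) bases and log2 values of heavy against light of 1.36, 1.30 and 1.75, while Id1, Id2 and Id3 have 504, 465 and 357 coding bases and values of -1.12, -0.67 and -0.85. Over the 38 genes the log2 value went with the log2 of coding length with Pearson's r = 0.65 and Spearman's rho = 0.45. This is a description across genes measured in the same 6 libraries. Over 12591 tested genes with a length (2481 had none) the same values were 0.42 and 0.39. In genes under 1000 coding bases the median was -0.76 for 4 members and -0.46 for all genes, from 1000 to under 2000 it was 0.24 for 24 members and 0.26 for all, and from 2000 to under 4000 it was 0.53 for 8 members, which ran from -0.40 (Smurf2) to 1.75, and 0.41 for all. From 4000 on it was 1.33 for the 2 members, Ltbp1 and Ltbp2, and 0.48 for all. In the range from 1000 to under 2000 the highest member was Inhbb, at 1.35 with 1233 coding bases, and the lowest Bmpr1b, at -1.01 with 1506.

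**Figure D4:**
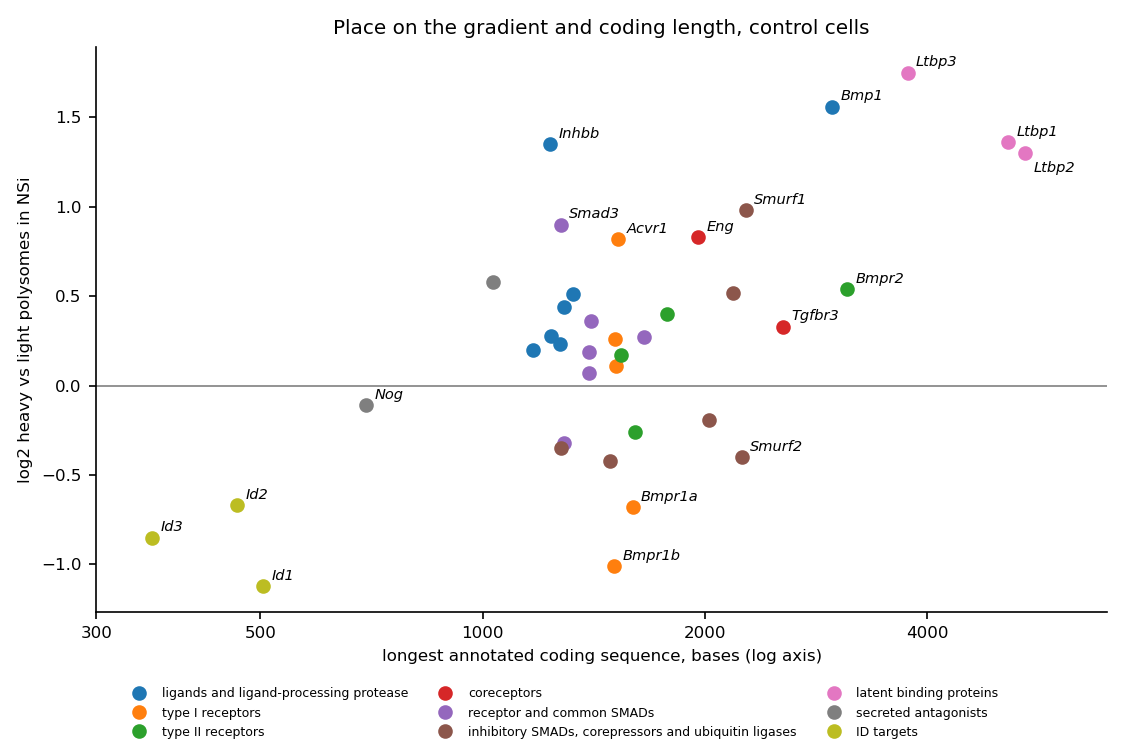
Log2 ratio of heavy to light polysomes in NSi (vertical axis) against the longest annotated coding sequence in bases (log axis) for the 38 tested genes, coloured by role. The 3 latent binding protein genes and Bmp1 are at the upper right, between 1.30 and 1.75, and the 3 ID genes at the lower left, between -1.12 and -0.67.

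Further genes of the pathway were taken from 7 lists of other ligands, receptors, latency and activation genes, antagonists, SMAD regulators and targets. Of 139 listed genes 136 were in the count tables and 93 were tested. In input 2 rose and 6 fell (8.6% called, against 6.95% of all genes), on light polysomes 3 fell (3.23% against 3.47%), and on heavy polysomes 1 rose and 1 fell (2.15% against 3.95%). The median log2 change was -0.08, -0.03 and -0.07. Of 27 tested TGF-beta targets 1 fell in input and 1 on light polysomes, of 9 BMP targets 2 fell in input and 1 on light, and of 29 SMAD regulators 1 rose in input and on heavy polysomes.

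The regulator that rose was Pmepa1, a TGF-beta-induced gene whose product holds SMAD2 and SMAD3 away from the receptor. It stood at 93.3 to 111 CPM in NSi inputs and 171 to 271 CPM in shDap5 inputs (log2 1.21, SE 0.25, edgeR adjusted p = 0.00611), and rose on heavy polysomes as well (0.95, SE 0.25, adjusted p = 0.0408). The heavy call was lost without NSi replicate 2 (0.194) or 3 (0.0544) or shDap5 replicate 1 (0.0867) or 3 (0.173), and with the heavy libraries alone (0.218). Itgb6, the beta subunit of an integrin that activates latent TGF-beta, rose in input from 4.84 to 6.65 CPM in NSi to 11.4 to 16.5 CPM in shDap5 (1.27, SE 0.35, adjusted p = 0.0319), a call lost without any of the 6 input libraries (adjusted p = 0.0559 without shDap5 replicate 3, 0.0664 without 2 and 0.089 without 1, and 0.141, 0.113 and 0.0733 without NSi replicate 1, 2 or 3). Twist1, a transcription factor of the mesenchymal state, fell in input from 37.3 to 41 CPM to 20.2 to 20.4 CPM (-0.96, SE 0.20, adjusted p = 0.00561). Rgma, a BMP coreceptor, fell in input from 22.3 to 24 CPM to 7.26 to 15.9 CPM (-1.18, SE 0.30, adjusted p = 0.0233), a call lost without NSi replicate 1 (0.0619), 2 (0.0705) or 3 (0.0763) or shDap5 replicate 1 (0.142) or 3 (0.138). Gata2, listed as a BMP target, fell from 1.36 to 1.83 CPM to 0.307 to 0.618 CPM in input (-1.56, SE 0.35, adjusted p = 0.0109), lost without NSi replicate 2 (0.0582) or shDap5 replicate 3 (0.0699). Fstl1, a follistatin-like secreted protein, was the antagonist that fell in all 3 fractions, from 5.48 to 8.79 CPM to 1.06 to 1.57 CPM in input, a call lost on heavy polysomes with the heavy libraries alone (0.0532).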

How the data were processed

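For each of the 18 libraries the authors deposited a table of raw counts by gene symbol. Bowtie and mm9 are the aligner and mouse build named, per the submitters' processing notes. Versions, counting, gene models, strand use and treatment of shared reads: not given in the sources used here. Counts were tested with edgeR 4.0.16 (R 4.3.3, limma 3.58.1): TMM scaling, filterByExpr (min.count 10, min.total.count 15), and a robust quasi-likelihood F test, two-sided, on all 18 libraries with 1 mean per group (12 residual degrees of freedom). P-values were adjusted by Benjamini-Hochberg over 15072 genes. A gene is called, and said to rise or fall, at an adjusted p under 0.05. SE is the log2 change divided by the square root of F. DESeq2 1.42.0, other scalings and filters, only the groups compared, each library left out in turn and replicate blocks were alternatives. The tests were also run on simulated counts, drawn without replicate effects and with changes in shDap5 input only. These do not bear on the block fits or on changes on polysomes.

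Same-numbered libraries of the 2 arms deviated together within each fraction, with correlations of 0.14 to 0.38 (input), 0.55 to 0.8 (light) and 0.53 to 0.83 (heavy), so numbers were taken to pair the arms there. Light and heavy libraries of an arm did so too (0.52 to 0.75), while input and polysomes of the same number did not always do so (-0.32 to 0.47). The block values given are from a fit with a term per replicate number in each fraction, unless the block is said to be shared by all fractions. Every pair of replicates differed by more than counting noise (lowest chi-square/df 9.57).

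Members and lists were chosen with earlier results of these data known. Values in every library are given for Eif4g2, for members called between the arms or without overlap in all 3 fractions, and for the member with the smallest p in each role; from the wider lists, called genes of at least 1 CPM, at most 4 per list; in the NSi comparisons, the 5 smallest p-values in each direction. Other named members were chosen after their values were seen. Lengths came from GENCODE M21 and promoters from RefSeq, both GRCm38, read with Python 3.11.15, and coordinates are of that build and not of the counts' build.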

Additional observations from a re-analysis of the deposited data

How the results depend on the processing

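In input 11 members were called with a replicate block shared by all fractions, 13 with only the groups compared and 17 with the replicate block within each fraction, against 6, and leaving out each library gave 3 to 8. On light polysomes 9 were called with DESeq2, 7 with the shared replicate block and 14 with the replicate block within each fraction, against 4, and leaving out each library gave 1 to 3. On heavy polysomes 0 were called with only the groups compared and 10 with the replicate block within each fraction, against 5, and leaving out each library gave 3 to 5. In that fit of the heavy libraries alone, which has 4 residual degrees of freedom in place of 12, 5 members had an unadjusted p under 0.05 (edgeR), and DESeq2 on all libraries called 6. All-gene counts in the order input, light and heavy were 1047, 523 and 595, with the replicate block within each fraction 3330, 2431 and 2765, with the shared replicate block 1798, 1013 and 1122, and with only the groups compared 2218, 219 and 56; leaving out each library gave 486 to 1712, 218 to 393 and 252 to 682. DESeq2 called 995 genes on light and 1050 on heavy polysomes.

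The relative comparisons called 0 members under each alternative; without shDap5 input replicate 2 they called 9 genes for heavy and 8 for light relative to input. In NSi, leaving out each library gave 13 to 18 members for heavy against light, 11 to 16 for heavy against input and 15 to 20 for light against input. Over all genes these fits called 6768 to 8089, 5803 to 6753 and 6466 to 7211 genes, beside 7930, 7029 and 7746 with all libraries. Of 1222 values of single genes under the alternatives, 1103 kept their direction and side of the threshold, 63 lost a call, 55 gained one and 1 changed sign: Smad9 on heavy polysomes, -0.32, was 0.02 without shDap5 heavy replicate 3 and -0.72 without replicate 1, the range over libraries left out. The causes were not tested, and some of the fits also had fewer libraries. The stricter filter on low counts dropped Smad9, Bmpr1b and Nog, which then have no value. Members under 1 CPM rest on few counts, and 0 counts in a library allow up to 3 counts, or 0.0394 to 0.11 CPM.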
